A study of Mus musculus with 6 samples.

Results

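The macrophage markers described here are 10 genes, Cd163, Folr2, Mrc1, Lyve1, Mpeg1, Adgre1, Cd68, Itgax, Csf1r and Csf1, which were taken by gene symbol (Adgre1 under its current name). They were measured by 16 of the 45037 probe sets on the array that are not controls, and all 16 probe sets passed the filter on low signals. The signals came from mammary glands of female bitransgenic mice at 10 weeks and at 5 weeks of age, bred from the strain called LH in the labels and the MMTV-neu strain. In MMTV-neu mice the promoter of the mouse mammary tumour virus, which is active in mammary epithelium, drives the neu (Erbb2) oncogene, and mice of both ages carried both transgenes, so the series compares ages and not genotypes. There were 3 arrays per age, with RNA of 3 animals pooled on each, so 9 animals stand behind an age. So few arrays limit the precision of the values, and because animals were pooled, the spread between arrays does not show the spread between single mice.

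Mammary glands hold several kinds of macrophage. In the fat and connective tissue around the ducts live long-lived resident cells that take up debris and carry scavenger and uptake receptors such as CD163, the mannose receptor MRC1, the folate receptor FOLR2 and the hyaluronan receptor LYVE1. Another population lies inside the ductal and alveolar epithelium, carries the integrin CD11c (Itgax) and can present antigen. Both depend on the receptor CSF1R, whose ligands CSF1 and IL34 keep macrophages alive.

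Cd163, Folr2, Mrc1 and Lyve1 were all lower at 10 weeks, with signals 1.96 to 3.47 times as high at 5 weeks on their brightest probe sets. Itgax and Mpeg1 were higher at 10 weeks, by 2.33 and 1.79 times. Adgre1 (higher), Csf1r (lower), Cd68 and Csf1 (both not called) differed by less than 1.5 times on their brightest probe sets. By limma with Benjamini-Hochberg adjustment over 27022 probe sets at 0.05, 3 of the 10 genes were higher at 10 weeks, 5 were lower and 2 were not called. The background is high in this comparison, since 34.1% of all 13002 genes tested were called, 15.3% higher and 18.7% lower. The median log2 difference of the 10 genes was -0.33, against 0.00 over all genes tested. On their brightest probe sets, 9 of the 10 genes had no overlap between the pools of the ages, 3 with the 10-week pools above and 6 with them below. Of all genes tested, 50.3% had no overlap, 24% above and 26.3% below. Differences are on the scale of log2(signal + 32), at 10 weeks minus 5 weeks. In RNA of a whole gland, fewer cells of a type and less RNA per cell cannot be told apart.

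**Figure D1:**
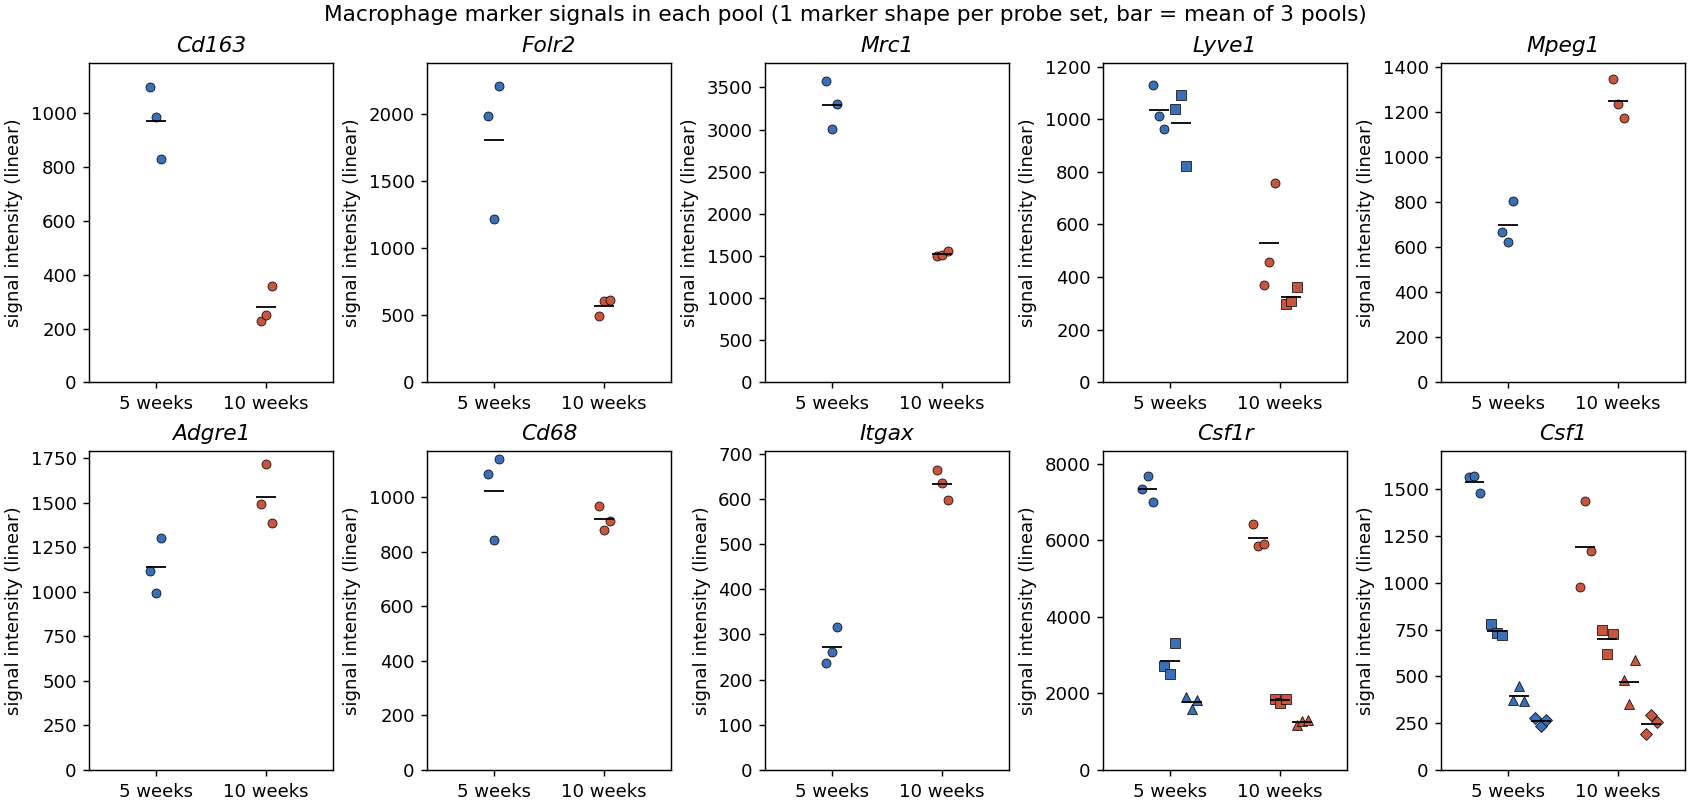
Linear signal intensity (vertical axis, from 0) of the 10 macrophage marker genes in the 3 pools at 5 weeks (blue) and the 3 pools at 10 weeks (red); each marker shape is 1 probe set, each point 1 pool and each bar the mean of 3 pools. The pools at 10 weeks lie below those at 5 weeks for Cd163, Folr2, Mrc1, Lyve1 and Csf1r and above them for Mpeg1, Adgre1 and Itgax, while those of Cd68 overlap.

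Cd163 encodes the haemoglobin scavenger receptor of resident macrophages. Its signal was 228.4, 251.7 and 358.8 at 10 weeks and 1099.1, 985.6 and 829.0 at 5 weeks. Every pool at 10 weeks lay below every pool at 5 weeks, and the closest were 10-week pool 3 and 5-week pool 3. The mean at 10 weeks was 280 ± 69.5 (SD, n = 3), against 971 ± 136 (SD, n = 3) at 5 weeks. The log2 difference was -1.70 ± 0.18 (SE) and passed limma's test (adjusted p = 0.000302). In all 14 alternative settings run on this probe set the call held, with differences of -1.88 to -1.50.

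Folr2 encodes a folate receptor that marks perivascular and stromal resident macrophages. Its signal was 492.1, 603.7 and 610.7 at 10 weeks and 1986.5, 1215.2 and 2207.9 at 5 weeks. The ages did not overlap, and 5-week pool 2 stood below the other two of its age. The log2 difference was -1.57 ± 0.21 (SE) by limma (adjusted p = 0.000864), and it ran from -1.83 without 5-week pool 2 to -1.41 without 5-week pool 3.

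Mrc1 encodes the mannose receptor CD206, an uptake receptor for glycoproteins and collagen fragments. The 10-week pools had signals of 1498.9, 1507.1 and 1557.1, and the 5-week pools had 3580.8, 3001.4 and 3298.7. The 10-week values were close together, with a mean of 1521 ± 31.5 (SD, n = 3), 0.462 times the mean of 3294 ± 290 (SD, n = 3) at 5 weeks. Mrc1 had the smallest adjusted p of the brightest probe sets of the 10 genes (0.000149 by limma), with a log2 difference of -1.10 ± 0.10 (SE).

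Lyve1 encodes a hyaluronan receptor of resident macrophages that is also a marker of lymphatic endothelium, so its signal in a whole gland has more than 1 source. On the brighter probe set, 1429379_at, it read 369.0, 455.7 and 759.0 at 10 weeks and 1129.7, 1010.3 and 963.2 at 5 weeks. On the other, 1453128_at, it read 296.3, 310.6 and 362.1 at 10 weeks and 1038.2, 1092.6 and 823.8 at 5 weeks. The ages did not overlap on either probe set, and on both 10-week pool 3 was the highest of its age, more so on the brighter one. The log2 difference was -0.99 ± 0.23 (SE) on the brighter probe set and -1.51 ± 0.15 (SE) on the other, and both passed limma's test (adjusted p = 0.0116 and 0.000209). Without 10-week pool 3 the brighter probe set gave -1.27.

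Some markers of lymphatic endothelium were lower at 10 weeks, as Lyve1 was. Of 8 listed, 5 were tested, of which 3 were lower and none higher, with a median log2 difference of -0.77; Flt4 (-0.56, adjusted p = 0.0567 by limma) and Mmrn1 (-0.20, 0.592) were not called. The summed signal of the 7 markers on the array was 1932 to 2230 at 10 weeks and 3607 to 4169 at 5 weeks. Prox1, the transcription factor that defines these vessels, was below the filter and was not tested, and its signals overlapped between the ages. At 10 weeks they averaged 66.0 ± 18.3 (SD, n = 3), whereas the 5-week pools averaged 26.0 ± 23.6 (SD, n = 3). The part of lymphatic vessels in the Lyve1 difference was not tested.

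The genes that rose included the marker of the epithelium-associated population. Itgax encodes the integrin alpha chain CD11c, which dendritic cells also carry. Its signal was 664.1, 635.3 and 598.0 at 10 weeks and 237.7, 262.1 and 316.2 at 5 weeks. The ages were far apart relative to the spread within each, with means of 632 ± 33.1 (SD, n = 3) and 272 ± 40.2 (SD, n = 3). The log2 difference was 1.14 ± 0.14 (SE) by limma (adjusted p = 0.000634).

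Genes of dendritic cells had calls in both directions. Of 13 listed, 8 were tested, of which 1 was higher at 10 weeks and 3 were lower, with a median of -0.51. The higher gene was Itgae (0.49, adjusted p = 0.0354 by limma), whose call was lost without any 1 of the 6 pools (adjusted p = 0.0589 to 0.103). Zbtb46 was among the lower genes (-0.56, adjusted p = 0.0124 by limma), but gave -0.07 with averaged probe sets (adjusted p = 0.727). With averaged probe sets 2 were lower, and with the dimmest probe set of each gene 1 was, and none was higher in either case. The summed signal of the 12 on the array was 3438 to 4119 at 10 weeks and 5444 to 6334 at 5 weeks. The part of dendritic cells in the Itgax difference was not tested. Monocyte genes were lower in 4 of 8 cases and higher in none, with a median of -1.04, and the summed signal of 9 was 6724 to 9062 at 10 weeks and 20480 to 23358 at 5 weeks. Fn1 alone averaged 4313 at 10 weeks and 12852 at 5 weeks, so it made up most of the 5-week sum. The 4 that fell were Plac8, Fn1, Vcan and Ace. Fn1 and Vcan are also matrix genes of fibroblasts, and Ace is also a gene of endothelium. Ccr2, the chemokine receptor that marks inflammatory monocytes, differed by -0.05 and was not called. The part of monocytes and of other cells in these differences was not tested. Plac8, Fn1, Vcan, Ace, Ccr2, Itgae, Zbtb46 and the lymphatic genes were named after their values were seen.

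Mpeg1 encodes perforin-2, a pore-forming protein of macrophages that acts on engulfed bacteria. Its signal was 1346.8, 1236.8 and 1174.3 at 10 weeks and 668.5, 625.1 and 806.1 at 5 weeks. All 10-week pools lay above the 5-week pools, with a log2 difference of 0.82 ± 0.13 (SE) by limma (adjusted p = 0.00186). The call held in all 14 alternative settings on this probe set, with differences of 0.74 to 0.92.

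Adgre1 encodes the F4/80 antigen, a usual surface marker of mouse macrophages. Its signal was 1492.0, 1719.0 and 1386.8 at 10 weeks and 1118.5, 992.0 and 1304.3 at 5 weeks. The ages did not overlap, but the lowest pool at 10 weeks and the highest at 5 weeks were close. The log2 difference of 0.42 ± 0.13 (SE) passed limma's test narrowly (adjusted p = 0.0436). The call was lost when 10-week pool 1, 2 or 3 was left out (0.44, 0.34 and 0.49; adjusted p = 0.0864, 0.142 and 0.0526) and when 5-week pool 1 or 2 was left out (0.41 and 0.33; adjusted p = 0.0995 and 0.128). Testing all probe sets with no filter ended it too (adjusted p = 0.0639), as did a fit with no variance trend (0.0695).

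Cd68 encodes a glycoprotein of lysosomes that all phagocytes carry. Its signal was 966.4, 879.4 and 910.8 at 10 weeks and 1083.9, 841.3 and 1139.8 at 5 weeks. The ages overlapped, with 5-week pool 2 the lowest of all 6 pools. The log2 difference was -0.14 ± 0.14 (SE) and did not pass limma's test (adjusted p = 0.484).

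Csf1r encodes the receptor tyrosine kinase on which macrophages depend, and its 3 probe sets gave the same direction. On the brightest, 1419872_at, the signal was 6410.3, 5843.2 and 5894.5 at 10 weeks and 7341.8, 7685.5 and 6987.9 at 5 weeks. On 1419873_s_at it was 1845.6, 1740.1 and 1857.7 at 10 weeks and 2714.2, 2495.4 and 3303.4 at 5 weeks. On 1423593_a_at it was 1171.7, 1271.6 and 1310.9 at 10 weeks and 1917.1, 1599.7 and 1813.7 at 5 weeks. No probe set had an overlap between the ages. The log2 differences by limma were -0.28 ± 0.09 (SE), -0.63 ± 0.12 (SE) and -0.49 ± 0.11 (SE), with adjusted p-values of 0.039, 0.00479 and 0.0101, so the size depended on the probe set. The call of the brightest was lost without 10-week pool 2 or 3 (-0.25 and -0.26; adjusted p = 0.112 and 0.11), without 5-week pool 1 or 2 (-0.28 and -0.24; 0.0922 and 0.114), with no filter (0.0713) and with no variance trend (0.109). The calls of the other two held in all 14 alternative settings run on each.

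Csf1 encodes the main ligand of that receptor, a growth factor made by stromal and epithelial cells rather than by macrophages alone. Its 4 probe sets did not give 1 direction, and none was called. The brightest, 1460220_a_at, read 976.8, 1434.9 and 1169.1 at 10 weeks and 1566.9, 1568.5 and 1480.2 at 5 weeks. The ages did not overlap there, but 10-week pool 2 lay close to the 5-week pools, and the log2 difference was -0.37 ± 0.14 (SE) by limma (adjusted p = 0.0785). Without 10-week pool 2 this probe set passed the test (-0.51, adjusted p = 0.027). The other 3 probe sets gave log2 differences of -0.09, 0.21 and -0.07, with overlapping ages and adjusted p-values of 0.439 to 0.8. One of them, 1425155_x_at, is of the kind whose probes can bind transcripts of other genes, as its suffix marks.

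**Figure D2:**
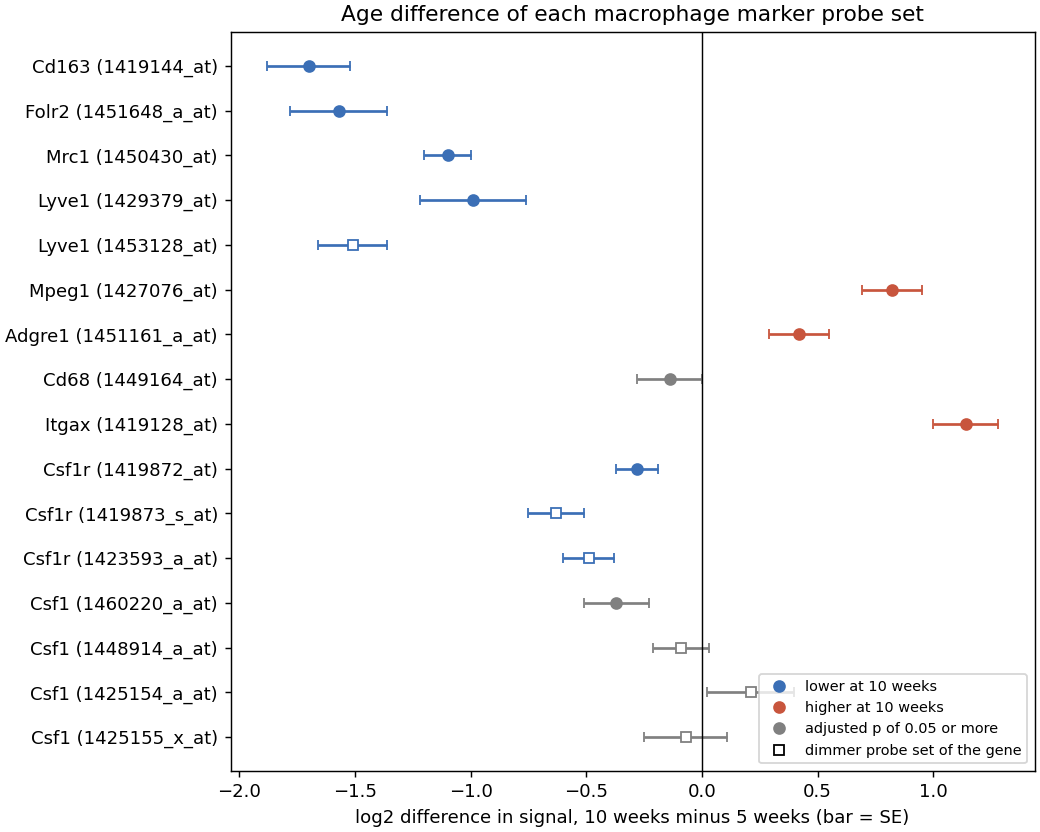
Log2 difference in signal, 10 weeks minus 5 weeks (horizontal axis, bars = SE from limma), of the 16 probe sets of the macrophage markers; filled circles stand for a gene (its brightest probe set), open squares are its dimmer probe sets, blue and red are called lower and higher and grey are not called. The 5 probe sets of Cd163, Folr2, Mrc1 and Lyve1 lie between -1.70 and -0.99, and Itgax lies highest at 1.14.

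A ratio within a pool does not move with the total signal of that pool, so each marker was also set against Adgre1, Cd68 and Csf1r of the same pool. Relative to Adgre1, the mean log2 ratio at 10 weeks minus that at 5 weeks was -2.12 for Cd163, -1.99 for Folr2, -1.52 for Mrc1 and -1.41 for Lyve1. Relative to Cd68 these differences were -1.56, -1.44, -0.96 and -0.85, and relative to Csf1r they were -1.42, -1.30, -0.82 and -0.71. The brightest probe set stood for each gene, and on these the ages did not overlap in any of the 12 ratios. The ratios of Lyve1 to Cd68 and Csf1r came closest to overlapping: centred on its mean over the 6 pools, the ratio to Cd68 was 0.15 in 10-week pool 3 and 0.16 in the lowest 5-week pool, and the ratio to Csf1r was 0.24 and 0.26. The ratios to Csf1r used 1419872_at, on which Csf1r differed least (-0.28, against -0.63 and -0.49). Against the other Csf1r probe sets, the Lyve1 ratio overlapped between the ages. In 10-week pool 3 Lyve1 read 759.0, beside Csf1r at 1857.7 (1419873_s_at) and 1310.9 (1423593_a_at). In 5-week pool 3 Lyve1 read 963.2, beside 3303.4 and 1813.7. In the other direction, Itgax rose relative to Adgre1, Cd68 and Csf1r by 0.71, 1.27 and 1.41, and Mpeg1 by 0.40, 0.95 and 1.09, again with no overlap between the ages. These ratios show unequal change of the markers and were given no test of their own.

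**Figure D3:**
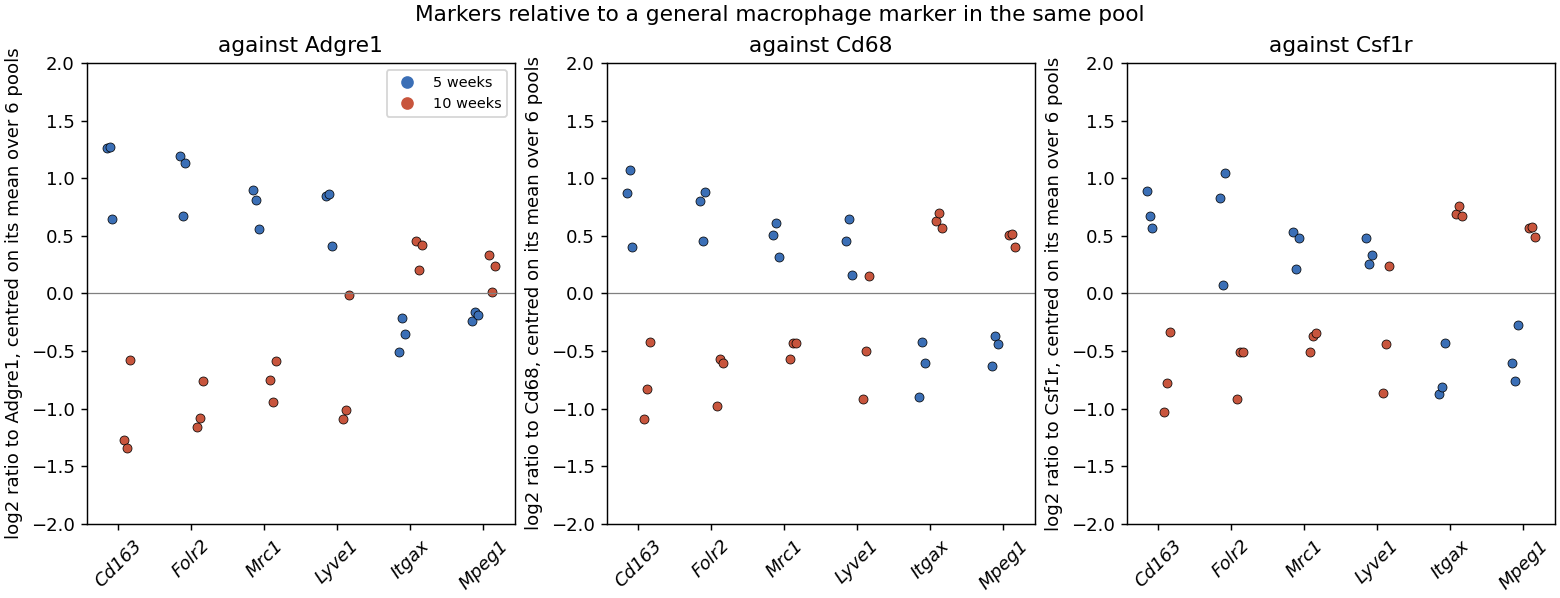
Log2 ratio of 6 markers to Adgre1, Cd68 or Csf1r of the same pool, centred on the mean of that ratio over the 6 pools (vertical axis, log2 units); each point is 1 pool, blue at 5 weeks and red at 10 weeks. On the brightest probe set of each gene, Cd163, Folr2, Mrc1 and Lyve1 lie lower at 10 weeks against all 3 reference genes, and Itgax and Mpeg1 lie higher.

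The DNA before the start sites of the genes that fell or rose most is shown because these genes moved together or apart. RefSeq windows (GRCm38.p6) were at hand for 7 of the 10 genes, in 8 windows of 250 bases ending at the start site. They were searched on both strands for GAGGAAG, the core bound by PU.1, the lineage factor of macrophages, and for TGACTCA, the site of AP-1; capitals mark a match. Cd163 (chr6:124304401-124304650, plus strand) held neither. Mrc1 (chr2:14229164-14229413, plus strand) held GAGGAAG with its first base at positions -168 and -36 from the start, read on the opposite strand. Folr2 (chr7:101845332-101845581, minus strand) held TGACTCA at -74, while the window of its other start held neither motif. Itgax (chr7:128129300-128129549, plus strand) held TGACTCA at -56, read on the opposite strand.
Cd163: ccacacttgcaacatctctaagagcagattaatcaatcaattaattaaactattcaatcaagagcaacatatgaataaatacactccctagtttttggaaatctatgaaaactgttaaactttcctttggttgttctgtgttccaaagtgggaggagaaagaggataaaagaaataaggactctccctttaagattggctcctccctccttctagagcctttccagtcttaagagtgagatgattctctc
Mrc1: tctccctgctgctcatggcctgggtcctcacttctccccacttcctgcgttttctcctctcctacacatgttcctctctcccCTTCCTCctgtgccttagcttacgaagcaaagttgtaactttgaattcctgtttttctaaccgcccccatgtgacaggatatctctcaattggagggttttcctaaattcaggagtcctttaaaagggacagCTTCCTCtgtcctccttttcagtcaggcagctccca
Folr2: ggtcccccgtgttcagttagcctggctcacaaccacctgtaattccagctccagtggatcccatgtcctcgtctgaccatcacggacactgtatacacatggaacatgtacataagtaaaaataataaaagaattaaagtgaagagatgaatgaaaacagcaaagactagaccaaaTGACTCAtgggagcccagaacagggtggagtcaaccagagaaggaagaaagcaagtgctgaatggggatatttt
Itgax: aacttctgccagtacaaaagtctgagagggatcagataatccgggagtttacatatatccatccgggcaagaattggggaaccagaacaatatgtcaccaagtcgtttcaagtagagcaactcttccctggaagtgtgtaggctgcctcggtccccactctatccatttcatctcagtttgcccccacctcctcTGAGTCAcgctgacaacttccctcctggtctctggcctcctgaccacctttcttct
Of all 32851 promoter windows of this length, 10.6% held GAGGAAG and 4.46% held TGACTCA. Among the 8 windows of the markers, 1 held GAGGAAG (Mrc1) and 3 held TGACTCA (Folr2, Itgax and Cd68). A match describes the letters in the window and shows no binding, and genes with a match included ones that fell, rose or were not called.

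Most other genes of tissue-resident scavenger macrophages fell too. Of 19 listed, all 19 were tested; 15 were lower at 10 weeks and none higher, with a median log2 difference of -1.04, beside 18.7% lower and a median of 0.00 over all genes. F13a1, a coagulation factor subunit made by resident macrophages, had signals of 1453.8, 1538.2 and 1373.2 at 10 weeks and 4967.9, 3625.5 and 3948.4 at 5 weeks. Its log2 difference was -1.49 ± 0.13 (SE) by limma (adjusted p = 0.000117). Maf, a transcription factor of resident macrophages that other cells also use, fell by 1.87 (adjusted p = 3.45e-05 by limma), but its dimmest probe set gave -0.58 and was not called (adjusted p = 0.155). Clec10a, a galactose-binding lectin, had signals of 670.8, 503.5 and 581.7 at 10 weeks and 2633.9, 1649.7 and 2555.4 at 5 weeks, which gave -1.88 ± 0.19 (SE) on the log2 scale. The pools at 10 weeks lay below those at 5 weeks for all 3 genes. The 4 not called were Stab1, Cbr2, Selenop and Vsig4, with differences of -0.37, -0.15, 0.19 and 0.08. The list was drawn up with the fall of the scavenger and uptake receptors known, so its direction is not independent of that result. Across the 16 alternatives, 12 to 16 of its genes were lower and none was higher.

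Most genes carried by macrophages in general were not called. Of 23 listed, 22 were tested, of which 6 were higher at 10 weeks and none lower, with a median of 0.02. Over all genes 15.3% were higher and 18.7% lower. The count of lower genes was 2 without 5-week pool 2, 2 without 5-week pool 3 and 3 with averaged probe sets, and that of higher genes was 4 to 6 over the 16 alternatives. Cd14, a co-receptor for bacterial lipopolysaccharide that luminal progenitor cells of the gland also carry, had signals of 7563.3, 5319.6 and 5726.0 at 10 weeks and 1455.0, 1596.7 and 1441.4 at 5 weeks, which gave 2.01 ± 0.14 (SE) on the log2 scale. The lectin receptors Clec7a (dectin-1) and Clec4n (dectin-2), which bind fungal sugars, rose by 1.16 and 0.93 (adjusted p = 0.00123 and 0.00329 by limma). Both had no overlap between the ages. Among the uncalled genes, Fcgr3, Itgam and Fcer1g had every 10-week pool below the 5-week pools. Their differences were -0.54, -0.51 and -0.52 (adjusted p = 0.0507, 0.0636 and 0.136 by limma). Tyrobp, also uncalled, had every 10-week pool above (0.12, adjusted p = 0.385). The part of epithelium in the Cd14 difference was not tested.

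In the CSF1 receptor pathway and among lineage factors, calls fell in both directions. Of 21 listed, 14 were tested; 3 were higher and 5 lower, with a median of 0.04. Il34, the second ligand of CSF1R, fell by 0.73 (adjusted p = 0.00747 by limma), and Mitf, a transcription factor of the osteoclast and melanocyte lineages, fell by 1.18 (adjusted p = 0.000487). Csf2rb, the shared beta chain of the receptors for GM-CSF and related cytokines, fell by 0.47 (adjusted p = 0.0231), and this call did not hold without 10-week pool 3 (-0.40, adjusted p = 0.0782) or without either of 5-week pools 2 and 3 (-0.39 and -0.47, adjusted p = 0.0759 and 0.0531). Plcg2, a phospholipase downstream of receptor signalling in myeloid and B cells, rose by 1.05 (adjusted p = 0.0123). The count of lower genes was 3 without 10-week pool 3, 2 without 5-week pool 2 and 3 without 5-week pool 3, and the count of higher genes was 2 without any 1 pool other than 10-week pool 3.

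Genes of complement C1q and the lysosome were mostly not called. Of 23 listed, 22 were tested; 6 were higher and 1 lower, with a median of 0.18. The 3 chains of C1q, which macrophages make, differed by -0.21, -0.34 and -0.20 (C1qa, C1qb and C1qc) and were not called. The ages did not overlap for C1qa and C1qb. With quantile normalization C1qa and C1qc were called lower by limma (adjusted p = 0.0414 and 0.0434). C1qb was called lower with averaged probe sets, with the dimmest probe set and without 5-week pool 2 (adjusted p = 0.0308, 0.023 and 0.0112). Gusb, the lysosomal beta-glucuronidase, rose by 1.35, Lipa, the lysosomal acid lipase, rose by 1.13, and Ctsl, a cysteine protease, rose by 0.59 (adjusted p = 0.000175, 0.000489 and 0.00266 by limma). Hexa, a subunit of beta-hexosaminidase, fell by 1.28, with signals of 1551.5, 1874.6 and 1737.1 at 10 weeks and 4059.4, 4188.6 and 4368.1 at 5 weeks. The count of lower genes rose to 4 with quantile normalization, 3 with the dimmest probe set, 3 without 5-week pool 2 and 2 with averaged probe sets. Lysosomal enzymes are made by all cell types of the gland.

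Among the inflammatory and lipid-associated macrophage genes, more were called higher at 10 weeks than lower. Of 25 listed, 14 were tested; 9 were higher and 2 lower, with a median of 0.58. Mmp12, the macrophage elastase, had signals of 868.7, 590.4 and 596.2 at 10 weeks and 49.0, 46.7 and 39.8 at 5 weeks, so it was near background at 5 weeks and the offset sets part of its log2 difference of 3.20 ± 0.19 (SE). Gpnmb, a glycoprotein of lipid-laden macrophages that other cells also make, rose by 1.21 (adjusted p = 0.000868 by limma). Saa3, an acute phase protein of macrophages and epithelium, rose by 3.05 (adjusted p = 0.000495). In the other direction, Retnla, a marker of alternatively activated macrophages that fat tissue also expresses, fell by 1.02, from signals of 13117.0, 11105.6 and 11445.8 to 5375.2, 5748.1 and 6435.0. The list mixes genes of opposed activation states, and Arg1, the arginase of alternatively activated macrophages, was the other gene that fell, by 0.90 (named after its value was seen). With the 60% of probe sets of lowest mean left out, 9 genes of the list were tested, of which 6 were higher and 2 lower. With no filter 23 were tested, of which 9 were higher and 2 lower, with a median of 0.45. The dimmest probe set of each gene gave 7 higher and 2 lower of 14. The filter used the mean over all 6 arrays, so a gene low at 5 weeks, such as Mmp12, could pass through its 10-week signals.

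Genes of antigen presentation by MHC class II rose in part. Of 12 listed, 10 were tested; 3 were higher and 1 lower, with a median of 0.14. The 3 were the chain genes H2-Aa, H2-Ab1 and H2-Eb1, which rose by 0.63, 0.66 and 0.69 on their brightest probe sets (adjusted p = 0.00325, 0.00346 and 0.0063 by limma). For H2-Ab1 the mean of its probe sets gave 0.37 (adjusted p = 0.0704) and the dimmest gave 0.05 (0.877), and the dimmest of H2-Aa gave 0.60 (0.0883). Cd74, the invariant chain of the same complex, differed by 0.23 and was not called. Cd86, a co-stimulatory receptor, fell by 0.80, a call that ended when 10-week pool 1 (-0.70, adjusted p = 0.0602) or 5-week pool 1 (-0.66, 0.0634) was dropped and with the dimmest probe set (-0.39, 0.261).

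**Figure D4:**
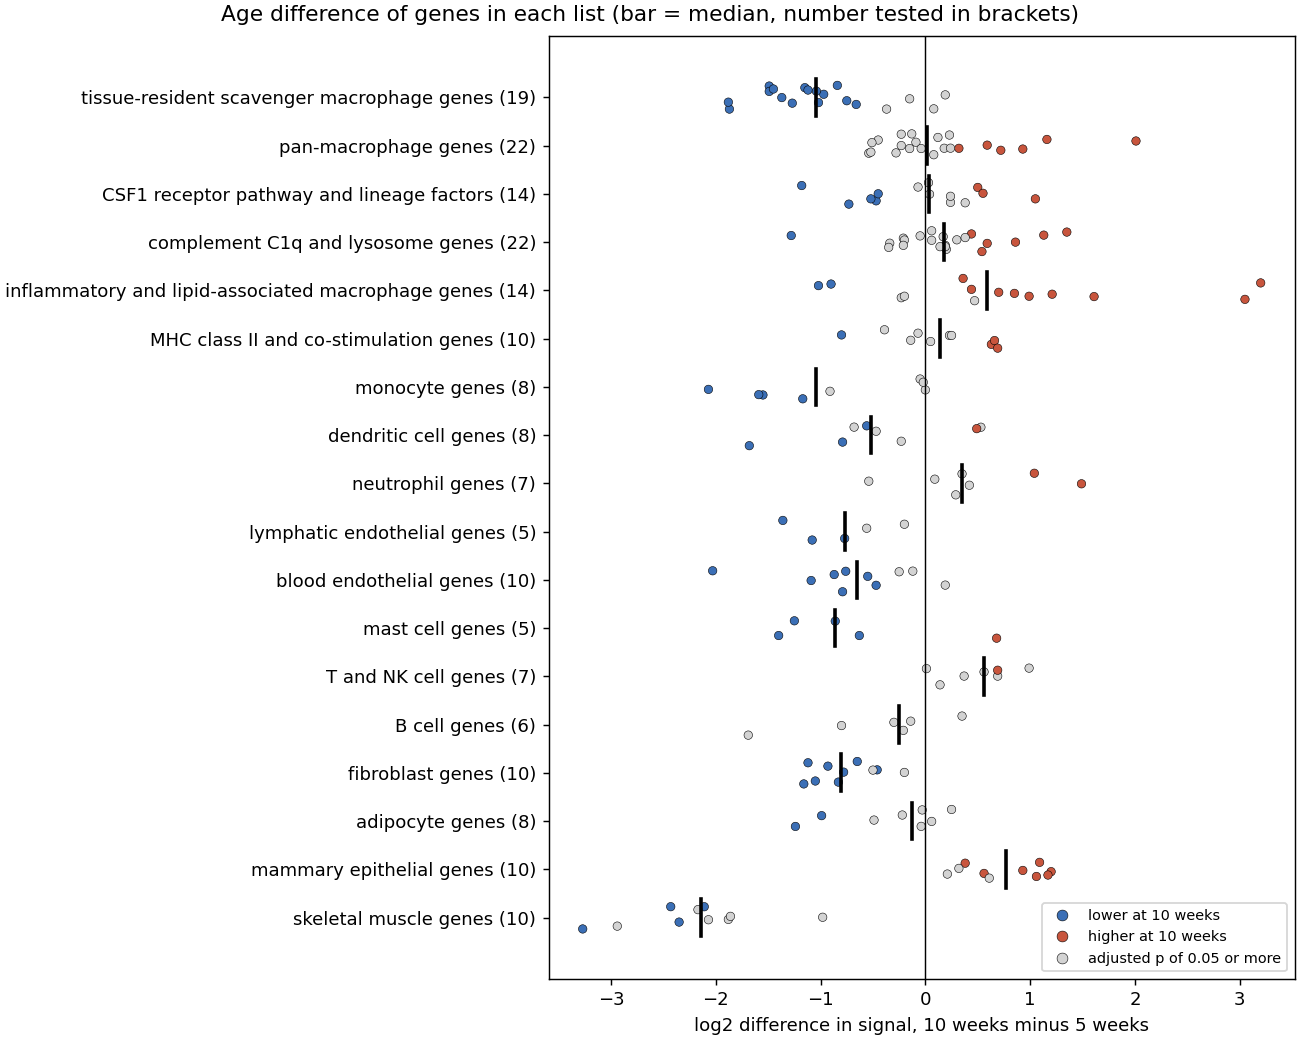
Log2 difference in signal, 10 weeks minus 5 weeks (horizontal axis), of each tested gene in 6 lists of macrophage genes and 12 lists of markers of other cell types; each point is 1 gene, blue and red are called lower and higher, pale grey is not called, and black bars are list medians. The tissue-resident scavenger list has its median at -1.04 and the inflammatory list at 0.58.

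Markers of several other tissues of the gland differed between the ages as well. Fibroblast genes were lower in 8 of 10 cases, with a median of -0.81 and a summed signal of 62422 to 68502 at 10 weeks and 93593 to 112135 at 5 weeks. Blood endothelial genes were lower in 7 of 10, with a median of -0.66 and sums of 6974 to 8901 and 10530 to 12338. Mammary epithelial genes, the check of the labelled tissue, were bright at both ages and were higher in 7 of 10, with a median of 0.77 and sums of 61944 to 71328 and 33505 to 42484. Adipocyte genes were lower in 2 of 8, with a median of -0.13 and overlapping sums of 73492 to 83152 and 73503 to 89582; quantile normalization gave 5 lower (median -0.31), the dimmest probe sets 4 and averaged probe sets 3. Skeletal muscle genes were lower in 4 of 10, with a median of -2.14 and sums of 6156 to 47869 and 60545 to 113149; the lowest was that of 10-week pool 1. This count rested on single pools: it was 6 without 10-week pool 1 (median -1.25), 7 without 10-week pool 2, 6 without 10-week pool 3 and 0 without 5-week pool 1 or 5-week pool 3, and it was 0 with robust variance and 1 with no filter or no variance trend. Without 10-week pool 1 the differences of Cd163, Folr2, Mrc1 and Lyve1 were -1.58, -1.48, -1.08 and -0.78 and those of Itgax and Mpeg1 were 1.10 and 0.77, all still called. No marker on the array was at 0 in these 5 lists. The part of each tissue in the differences of the macrophage markers was not tested.

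Likeness to the scavenger and uptake receptors over the 6 arrays was measured by the mean absolute difference between centred log2 profiles. The genes with the most similar patterns were named. For the mean profile of Cd163, Folr2, Mrc1 and Lyve1 these were Col5a1 (0.0215), a collagen chain, Aebp1 (0.0278), a protein of the collagen matrix, and Asphd2 (0.06), with log2 age differences of -1.31, -1.28 and -1.36. For Mpeg1 they were Grhl2 (0.0412), an epithelial transcription factor, Derl3 (0.0443), a protein of endoplasmic reticulum degradation, and Ovol1 (0.0466), another epithelial transcription factor, with age differences of 0.89, 0.80 and 0.77. All 6 rest on 6 arrays that fall into 2 ages, so likeness and size of the age difference cannot be told apart.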

How the data were processed

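Total RNA of mammary gland was labelled with biotin-UTP and hybridised to 6 mouse arrays, per the labels, 3 pools per age. The authors deposited 1 linear signal intensity per probe set, and the mean without the lowest and highest 2% was 500 on every array, as tested on the values. The algorithm, detection calls and batches are not given in the sources used here. Median signals were 156.4 to 172.5. Correlations of log2 signals were 0.973 to 0.978 within an age and 0.932 to 0.955 between ages, and no array was a copy of another.

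The array has 45101 probe sets, of which 64 are controls and were not used. The platform annotation gave 34945 of the rest 1 symbol, 932 several and 9160 none. Symbols were updated by gene identifier in a RefSeq table of GRCm38.p6 (34741 matched), used for names only.

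Values under 1 were set to 1 and log2(signal + 32) was taken. Array medians lay within 0.118 of each other, so no normalization was added. Probe sets in the lowest 40% by mean were dropped. limma 3.58.1 in R 4.3.3 (lmFit, eBayes with a variance trend) tested age with 4 residual degrees of freedom, two-sided, and p-values were adjusted by Benjamini-Hochberg over all 27022 probe sets. The brightest probe set stood for a gene. Pool numbers follow accession order. Plots used matplotlib 3.10.9 (Python 3.11.15).

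The members, the 18 lists (6 of macrophage genes, 12 of other cell types) and the tests were chosen with earlier results of these data known. From each of the 6 lists the text names 3 called genes, those of smallest adjusted p on the side with more calls, and the called gene of largest size on the opposite side; Arg1, the uncalled genes and the markers of other cell types that are named were chosen after their values were seen. For likeness, the rule took the 3 closest profiles. On simulated data for 10 against 5 weeks over 27022 probe sets, 2% of 50 probe sets changed by 0.5 on the log2 scale were recovered, 52% of those changed by 1 and 92% of those changed by 2. Far fewer probe sets were changed in the simulation than the 7774 called in the real data. Its adjustment was therefore stricter, and these shares do not give the recovery in the real comparison. Alternatives changed the offset, filter, normalization, variance model, array weights and probe set of a gene, and left out each pool.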

Additional observations from a re-analysis of the deposited data

How the results depend on the processing

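The offset (1 or 100), the filter (none or the lowest 60%), quantile normalization, the variance model (no trend or robust), array weights, the probe set that stands for a gene (mean or dimmest) and leaving out each pool in turn were tried. Under these 16 alternatives 6 to 8 of the 10 macrophage markers were called, 2 to 3 higher and 4 to 5 lower, and no marker changed direction. Cd163, Folr2, Mrc1, Lyve1, Itgax and Mpeg1 were called in all 16, while Adgre1 kept its call in 9 and Csf1r in 10. Over all probe sets, 5649 to 7872 were called in the 14 alternatives that apply to them. Leaving out 1 pool gave 5649 to 6430 probe sets and 6 to 8 markers. No paired analysis was possible because the labels give the pools no numbers shared between the ages. Signal over background was not analysed here, since the sources used give no detection calls, and differences of genes near background depend on the offset.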

Other observations

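Other immune cells of the gland are described here by lists of their markers. Of 7 mast cell genes on the array, 5 were tested; 4 were lower at 10 weeks and 1 higher, with a median log2 difference of -0.86. The 4 were Cpa3, Mcpt4, Tpsb2 and Cma1, all proteases of mast cell granules, with differences of -0.86, -1.40, -1.25 and -0.63, and the gene that rose was Kit (0.68), which luminal progenitor cells also carry. The list counted 2 to 4 lower genes over the 16 alternatives, with 2 when the lowest 60% were left out and 3 genes were tested. Cma1 was no longer called by limma without 10-week pool 1, 10-week pool 2 or 5-week pool 3. The differences were then -0.57, -0.59 and -0.42, with adjusted p of 0.114, 0.108 and 0.0917. Its call was also lost with no filter (0.0679), quantile normalization (0.0701), no variance trend (0.0518) and array weights (0.0546). Neutrophil genes were higher in 2 of 7 cases, which were S100a8 and Lcn2 (1.49 and 1.04), both also made by epithelium, while Mpo, Elane, Ngp, Mmp8 and Mmp9 were not called. All these genes were named after their values were seen.

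Of 7 T and NK cell genes tested, 1 was higher (Gzma, 0.69) and none lower, near the 15.3% higher over all genes. Gzma was not called by limma when 10-week pool 1, 10-week pool 2 or 5-week pool 3 was left out (adjusted p = 0.0704 to 0.0855), and no other gene of the list was; leaving out 5-week pool 2 gave 4 higher genes. Of 6 B cell genes none was called; the B cell list had 0 to 1 lower genes by limma over the 16 alternatives. 5-week pool 2 had the highest summed B cell signal, 3285, where the remaining 5 pools had 518 to 1169. It also had the highest sum for T and NK cells, 3358, against 1191 to 2448. Without 5-week pool 2 the differences were -1.69 for Cd163, -1.83 for Folr2, -1.16 for Mrc1, -1.0 for Lyve1, 1.12 for Itgax and 0.74 for Mpeg1, all called.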
